A study of Mus musculus with 6 samples.

Results

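The genes described here are the Wnt ligands, their receptors and the R-spondin arm of Wnt signalling, read in mammary organoids with and without the histone methyltransferase gene Ezh2. The list holds 41 genes chosen by name and not by their values: 17 Wnt ligands, 15 receptors (Frizzled, LRP, Ror and Ryk genes), 7 genes of the R-spondin and LGR arm, and Porcn and Wls, which are needed to make and export Wnt proteins. Of these, 39 had a row among the 21627 genes of the deposited table, and Wnt3 and Wnt3a were not analysed here. The 39 rows comprised 15 ligands, 15 receptors, 7 R-spondin and LGR genes, and both maturation genes.

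The knockout (KO) organoids came from MIC mice with conditional Ezh2 alleles (genotype MIC/EZH2fl/fl), and the wild-type (WT) organoids came from MIC mice with unaltered Ezh2. All animals were female FVB/N mice aged 8 to 12 weeks, and roughly 10000 mammary epithelial cells were plated and left for 6 days to form acini. The cultures behind all 6 libraries, 3 per genotype, were then kept for 8 days in medium with 2 µg/ml doxycycline, changed at intervals of 48 hours. Doxycycline induces polyomavirus middle T antigen in MIC cells and, where the Ezh2 alleles are conditional, their deletion, so the WT organoids express the oncogene and were exposed to the drug too. The sources used here name no promoter for the transgenes. They also leave unsaid whether replicates are separate mice or cultures, so p-values reflect only sample-to-sample spread, and that spread may be technical.

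Wnt proteins are secreted lipid-modified ligands. Porcupine (Porcn) attaches the lipid in the endoplasmic reticulum, Wntless (Wls) carries the ligand to the cell surface, and there it binds a Frizzled receptor together with the co-receptor LRP5 or LRP6 to stabilise β-catenin. Ror and Ryk receptors take part in β-catenin-independent responses. R-spondins bind LGR4, LGR5 or LGR6 and keep Frizzled receptors at the surface by withdrawing the ubiquitin ligases RNF43 and ZNRF3. In the mammary gland Wnt4 and Rspo1 are known as signals of the hormone-responsive luminal epithelium, and Wnt signalling is known to maintain basal stem cells. Ezh2 is the catalytic subunit of a Polycomb complex that methylates histones at repressed genes.

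The targeted gene was lower in every KO library. Ezh2 had 7.13, 7.28 and 5.84 CPM (counts scaled to a common library size) in the KO libraries, against 19.3, 22.6 and 14.7 CPM in the WT libraries, which left 35.8% of the WT mean. Its log2 fold change (KO over WT) was −1.48 ± 0.20 (SE), with an adjusted p of 0.0755 in edgeR and 1.46e-07 in DESeq2, and p = 0.1 by a two-sided exact permutation test, which cannot go lower with 3 libraries against 3. Library totals were 27667054 to 29203634 counts in KO and 18292722 to 23437024 in WT, so the KO libraries were the deeper ones. The KO libraries also lay closer together, with a chi-square per gene between replicates of 13.9 to 22.7, against 75.1 to 147 between WT replicates. The epithelial genes Krt8 and Epcam were abundant in every library, at 1495 to 1501 CPM and 553 to 582 CPM in KO and 1622 to 1914 CPM and 513 to 668 CPM in WT. They belong to 14 luminal markers, which summed to 4779 to 4881 CPM in KO and 4853 to 5476 CPM in WT. The 12 basal and myoepithelial markers summed to 967 to 1056 CPM in KO and 868 to 1144 CPM in WT. Single markers moved both ways. DESeq2 called 2 luminal markers higher and 1 lower, and 1 basal marker higher and 1 lower (all genes 4.13% higher, 3.53% lower). Fibroblast and myeloid genes were present as well and varied among the WT libraries. The 12 fibroblast markers summed to 10451 to 12045 CPM in KO, and to 3319, 10520 and 15434 CPM in WT replicates 1, 2 and 3. The 10 myeloid markers summed to 477 to 601 CPM in KO, and to 471, 2003 and 747 CPM in WT replicates 1, 2 and 3. DESeq2 called 1 fibroblast marker lower and 0 higher, and 2 myeloid markers lower and 0 higher. At an unadjusted p under 0.05 edgeR took 6 myeloid markers as lower in KO and 0 as higher (all genes 10.9% lower). The median log2 fold change was −1.49 for the myeloid markers and 0.06 for the fibroblast markers. No gene of either list was at 0 in all libraries, which holds for every gene of the deposited table.

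Most of these genes were detected. The filter on low counts kept 33 of the 39: 11 of 15 ligands, 14 of 15 receptors, 6 of 7 R-spondin and LGR genes, and both maturation genes. Of the 33, 29 lay above the filter's cutoff of 0.391 CPM in all 6 libraries. Wnt2 and Rspo4 did so in 5 libraries. Wnt2b did so in 4, the 3 KO libraries and WT replicate 2, so it passed through KO, the group in which it was higher. Wnt10b was above the cutoff in 3 libraries, all of them KO, so it passed only through the group in which it was higher. The remaining 6 genes, Wnt1, Wnt7a, Wnt9b, Wnt16, Fzd10 and Rspo2, were not tested. Their counts ran from 0 to 17 per library, and the 17 were reads of Wnt9b in KO replicate 3, against 1 and 3 in the other KO libraries and 5, 0 and 1 in WT.

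**Figure D1:**
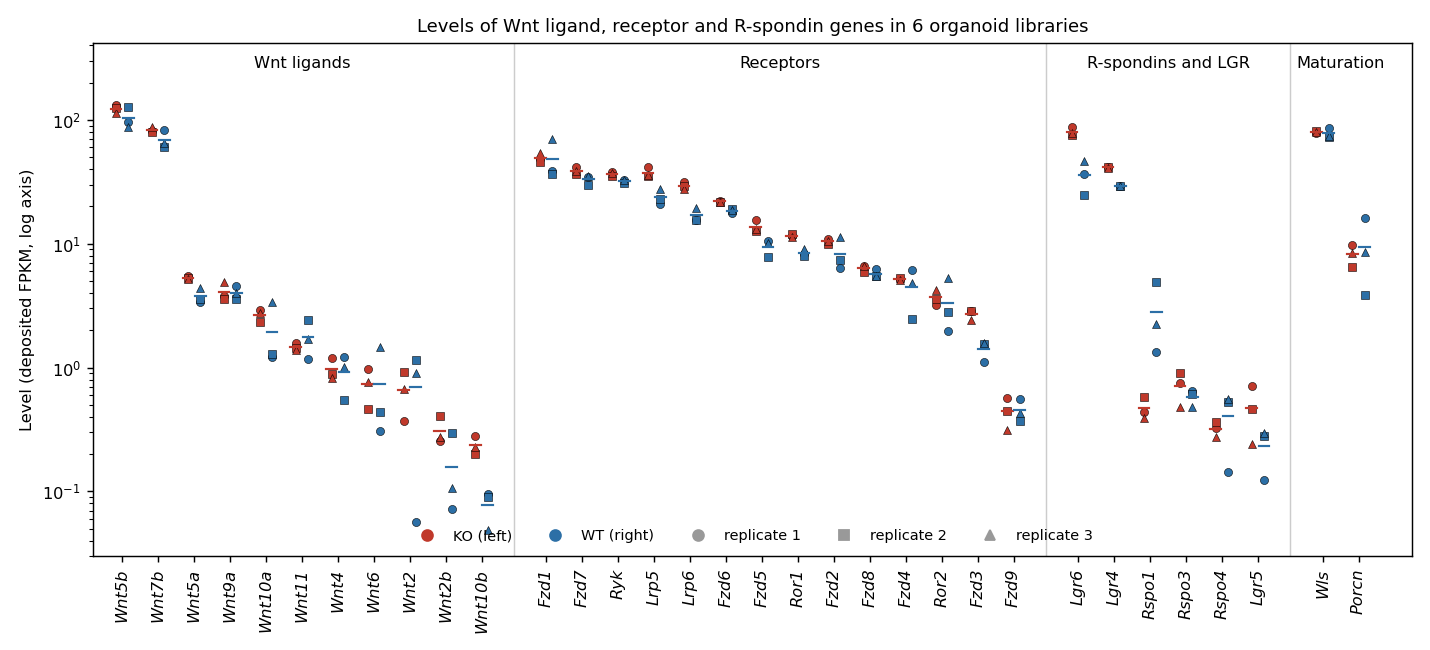
Deposited FPKM (counts scaled for gene length and library total, log axis) of the 33 tested genes in each library, ordered by mean level within each family, KO left and WT right, with marker shapes for replicates and short bars for group means. Wnt5b and Wnt7b stood above the other ligands, and Lgr6, Lgr4, Lrp5 and Lrp6 had all KO points above all WT points, while Rspo1 had all KO points below.

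More of these genes were higher than lower in KO organoids, among them both LRP co-receptors and 2 of the 3 LGR receptors. In edgeR's quasi-likelihood fit, the main test, 0 of 14196 genes reached an adjusted p under 0.05 (0.0%), and so 0 of the 33. At an unadjusted p under 0.05 it took 2811 genes (19.8%) and 11 of the 33. Of the 11, 10 were higher in KO (background over all genes 8.93%) and 1 was lower (background 10.9%). The 10 include Wnt10b, which passed the filter only through KO, and without it they are 9 of 32. DESeq2 called 9 of the 32 that received an adjusted p, against 7.67% of all genes. Of the 9, 8 were higher (background 4.13%) and 1 was lower (background 3.53%). The 8 were Wnt5a, Fzd3, Fzd5, Lrp5, Lrp6, Ror1, Lgr4 and Lgr6, and the 1 was Rspo1. Below, a gene is said to have risen or fallen where DESeq2 called it, and its edgeR adjusted p is given beside it. The authors' deposited table places 7 of 32 past an adjusted p of 0.05, against 6.18% of its genes, 6 higher and 1 lower. These are the genes called by DESeq2 here without Wnt5a and Fzd5.

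The log2 fold change was positive for 27 of the 33, against 44.5% of all genes tested, and its median was 0.25, against −0.05 over all genes. The 27 include Wnt2b and Wnt10b, which passed the filter through KO. Without Wnt10b the log2 fold change was positive for 26 of 32, with a median of 0.24. Without the 9 genes called by DESeq2 it was positive for 19 of 24, with a median of 0.18, and the 19 also include Wnt2b and Wnt10b. All 3 KO libraries lay above all 3 WT libraries for 12 of the 33 (background 14.2%), 8 of which DESeq2 called, and below them for 1 (background 14.6%). Without Wnt10b the 12 are 11 of 32. By role, the median log2 fold change was 0.26 for the 11 ligands, 0.23 for the 9 Frizzled genes, 0.73 for the 2 LRP genes, 0.20 for Ror1, Ror2 and Ryk, −0.33 for the 3 tested R-spondins and 1.02 for the 3 LGR genes. Porcn and Wls had −0.21 and 0.03. The ligand median was 0.16 without Wnt10b, and 0.061 with a filter of at least 1 CPM in 3 libraries, which also leaves out Wnt2b.

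The median log2 fold change rose with gene length in these libraries, and many of the genes concerned are long. With all tested genes cut into 5 classes of about equal size by length, the median log2 fold change was −0.31 in the shortest class (up to 1.74 kb) and 0.20 in the longest (from 4.94 kb). Of the 33, 0 belonged to the shortest class and 7 to the longest. These 7 were Wnt5a, Fzd5, Lrp5, Lrp6, Ror1, Lgr4 and Lgr6, all of them among the 8 genes that DESeq2 called higher. The length trend differed among WT libraries. Relative to each gene's mean over libraries on the log2 scale, the shortest class lay 0.37 higher and the longest 0.21 lower in WT replicate 2. The shortest and longest class lay at −0.09 and −0.07 in WT replicate 1, and at 0.14 and 0.005 in WT replicate 3. In the KO libraries the shortest class lay 0.11 to 0.15 lower and the longest 0.09 to 0.10 higher. The fitted KO minus WT trend at each gene's length was largest for Lrp6 at 0.30 and Lrp5 at 0.29, followed by Wnt5a at 0.22, Fzd5 at 0.21 and Lgr6 at 0.20.

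With each library's length trend removed, the median log2 fold change of the 33 was 0.24, against −0.01 over all genes, and 28 were positive, against 48.7% of all genes. The 28 include Wnt2b and Wnt10b, and without Wnt10b the median was 0.22. At an unadjusted p under 0.05, edgeR then took 10 higher (background 7.52%) and 1 lower (background 6.63%), and still called 0 genes after adjustment (0.0%). The 10 again include Wnt10b, which passed the filter only through KO, and hold Wnt5b in place of Wnt5a. DESeq2 then called 486 genes (3.42%) and 5 of the 33: Fzd3, Lrp6, Rspo1, Lgr4 and Lgr6. Wnt5a, Fzd5, Lrp5 and Ror1 were no longer called, with adjusted p-values of 0.364, 0.232, 0.179 and 0.0767 in DESeq2. The median for the LRP genes came to 0.44, and that for the LGR genes to 0.93. With annotated transcript length in place of the deposited length these medians were 0.53 and 1.03.

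**Figure D2:**
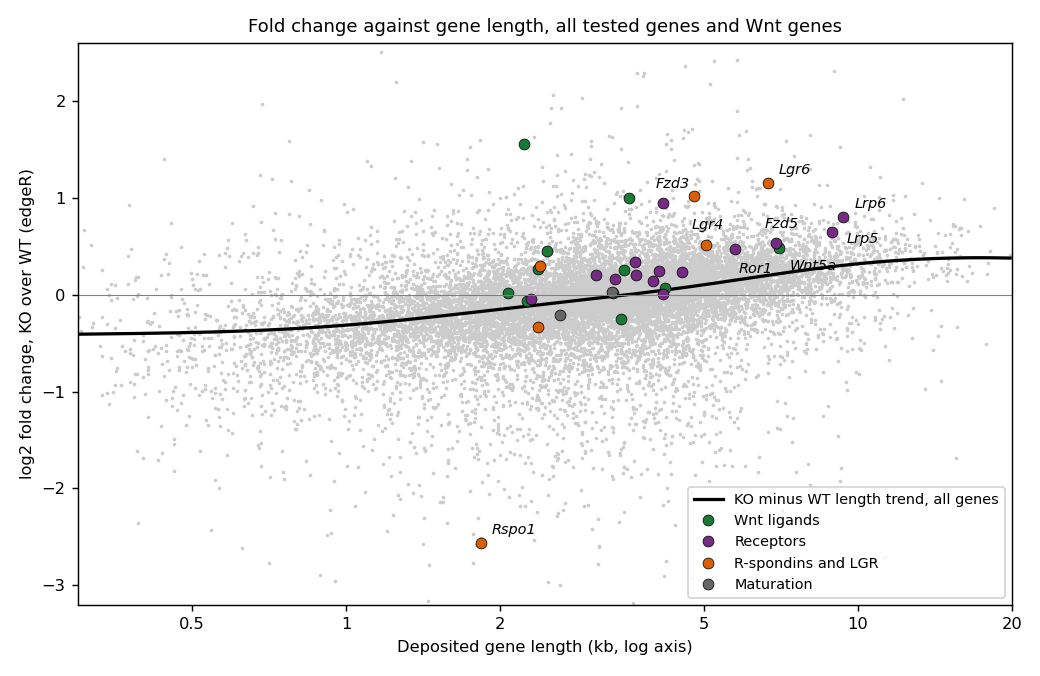
edgeR log2 fold change (KO over WT) against deposited gene length (kb, log axis) for all tested genes in grey and the 33 tested Wnt genes in colour, with the fitted KO minus WT length trend as a black line and the 9 genes called by DESeq2 labelled. Lrp5, Lrp6, Wnt5a and Fzd5 lie where the trend is above 0.2, whereas Rspo1 lies far below the trend at its length.

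Promoter windows were at hand for 5 of the 9 genes called by DESeq2, and these are printed because they are the stretches where a Polycomb complex or a Wnt effector would be looked for. Each is the RefSeq window on GRCm38.p6 of 300 bases, 250 before and 50 after the annotated start, 5′ to 3′ on the gene's strand, with every CG dinucleotide in capitals. The windows are chr4:124986180-124986479 on the plus strand for Rspo1, chr1:135105227-135105526 on the minus strand for Lgr6, chr2:109917397-109917696 on the plus strand for Lgr4, chr1:64737701-64738000 on the minus strand for Fzd5 and chr4:100095541-100095840 on the plus strand for Ror1.
Rspo1: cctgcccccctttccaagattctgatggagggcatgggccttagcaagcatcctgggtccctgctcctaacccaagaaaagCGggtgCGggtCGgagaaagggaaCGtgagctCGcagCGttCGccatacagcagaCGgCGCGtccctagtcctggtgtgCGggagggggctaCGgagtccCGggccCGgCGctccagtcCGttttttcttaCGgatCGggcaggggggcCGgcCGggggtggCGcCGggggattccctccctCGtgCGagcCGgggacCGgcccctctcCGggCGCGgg
Lgr6: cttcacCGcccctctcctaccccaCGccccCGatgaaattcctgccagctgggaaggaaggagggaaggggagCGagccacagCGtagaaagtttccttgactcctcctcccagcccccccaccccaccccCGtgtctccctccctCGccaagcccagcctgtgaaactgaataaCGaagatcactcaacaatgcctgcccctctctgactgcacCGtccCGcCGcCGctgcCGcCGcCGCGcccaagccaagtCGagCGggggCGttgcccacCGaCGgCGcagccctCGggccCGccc
Lgr4: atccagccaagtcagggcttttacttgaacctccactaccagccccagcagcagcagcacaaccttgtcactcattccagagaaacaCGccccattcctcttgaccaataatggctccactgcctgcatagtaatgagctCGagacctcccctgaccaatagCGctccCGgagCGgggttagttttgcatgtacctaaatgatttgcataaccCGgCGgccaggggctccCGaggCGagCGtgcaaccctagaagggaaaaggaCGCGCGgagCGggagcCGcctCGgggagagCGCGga
Fzd5: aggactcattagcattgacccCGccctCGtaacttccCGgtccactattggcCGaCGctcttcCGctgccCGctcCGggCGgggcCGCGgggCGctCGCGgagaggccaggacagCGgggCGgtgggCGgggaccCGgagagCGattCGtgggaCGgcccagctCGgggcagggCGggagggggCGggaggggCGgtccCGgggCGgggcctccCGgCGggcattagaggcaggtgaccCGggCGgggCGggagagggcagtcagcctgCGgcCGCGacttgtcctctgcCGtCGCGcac
Ror1: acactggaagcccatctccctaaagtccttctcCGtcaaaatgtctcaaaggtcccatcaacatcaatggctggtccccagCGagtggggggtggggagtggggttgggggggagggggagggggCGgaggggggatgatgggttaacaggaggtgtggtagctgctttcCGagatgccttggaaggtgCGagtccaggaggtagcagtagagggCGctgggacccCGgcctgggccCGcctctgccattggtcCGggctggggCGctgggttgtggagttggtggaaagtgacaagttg
The counts of CG were 29 for Rspo1, 24 for Lgr6, 18 for Lgr4, 38 for Fzd5 and 10 for Ror1. Over the 31 windows of the 28 listed genes that had one the median was 29, and over all 32851 windows in the table, noncoding genes included, it was 7. Of all windows, 12.9% held at least as many CG as Rspo1 and 43.5% at least as many as Ror1, and 94.6% held at least 1. All 5 windows, that of the gene that fell included, lay above the median of all windows. The letters CTTTGAT, a core of the motif bound by TCF and LEF factors, were searched on both strands. They occurred in 0 of the 5 windows printed, in 2 of the 31 windows (at Wnt11 and Wnt5b) and in 3.73% of all windows.

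Among ligands, a pair of genes made up most of the transcripts in both genotypes. Wnt5b, a ligand of β-catenin-independent signalling in many settings, had 131, 125 and 113 FPKM in KO, against 96.5, 127 and 86.9 FPKM in WT. Wnt7b, a ligand of β-catenin signalling in several epithelia, had 80.9, 80.4 and 87.3 FPKM in KO, against 82.3, 60.5 and 65.2 FPKM in WT. For both genes the groups overlapped. Wnt5b made up 55.3% ± 2.91 of summed ligand FPKM in KO and 55.0% ± 7.06 in WT, and Wnt7b made up 37.3% ± 2.55 in KO and 37.3% ± 6.58 in WT (SD, n = 3 each). The log2 fold change was 0.26 ± 0.14 (SE) for Wnt5b and 0.26 ± 0.15 for Wnt7b, with edgeR adjusted p-values of 0.353 and 0.379. With the length trend removed it was 0.37 ± 0.13 for Wnt5b and 0.26 ± 0.16 for Wnt7b. For Wnt5b the edgeR p was then 0.0225 before adjustment and 0.340 after it. Neither was called by DESeq2 with all libraries, although Wnt5b was called without WT replicate 2 and Wnt7b without WT replicate 1. Summed over all ligands the level was 229, 221 and 218 FPKM in KO, against 191, 201 and 169 FPKM in WT, with every KO library above every WT library.

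Wnt5a was the ligand that rose in DESeq2. This gene, whose product signals through Ror receptors, is on chromosome 14 (28504750 to 28527447, plus strand). It had 38.3, 36.5 and 36.7 CPM in KO, against 24.0, 24.2 and 31.7 CPM in WT. The KO libraries lay close together and above all WT libraries, of which replicate 3 was the highest. As a log2 fold change this was 0.48 ± 0.14 (SE), with an adjusted p of 0.142 in edgeR and 0.0466 in DESeq2. DESeq2 no longer called Wnt5a without any one KO library (adjusted p = 0.231 to 0.311), where calls over all genes also fell, from 1046 to between 283 and 360. The Wnt5a call was also lost without WT replicate 1 or 2 (adjusted p = 0.0693 or 0.0704), and without WT replicate 3 its adjusted p was 0.00023. With the length trend removed the log2 fold change was 0.27 ± 0.12.

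Wnt10b, a β-catenin ligand known from mammary tumours of mouse mammary tumour virus, was near the limit of detection. Its reads numbered 18, 13 and 14 in KO, against 5, 4 and 2 in WT. That corresponds to 0.626, 0.442 and 0.514 CPM in KO, against 0.216, 0.193 and 0.112 CPM in WT, with no overlap. Its log2 fold change was 1.55 ± 0.48 (SE), the edgeR adjusted p was 0.157, and DESeq2 gave no adjusted p at this depth.

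The other 7 tested ligands had edgeR adjusted p-values of 0.355 to 0.993, and DESeq2 called 0 of them with all libraries. Wnt9a averaged 4.08 ± 0.69 FPKM in KO and 4.03 ± 0.50 FPKM in WT (SD, n = 3 each), with a 95% interval of the log2 fold change from −0.42 to 0.46. Wnt4, a progesterone-responsive ligand of luminal cells, averaged 0.972 ± 0.20 FPKM in KO and 0.921 ± 0.34 FPKM in WT. Wnt10a, Wnt6 and Wnt11 lay between 0.309 and 3.37 FPKM in all libraries, and each had overlapping groups. Wnt10a and Wnt6 were highest in WT replicate 3, at 3.37 and 1.45 FPKM, the library with the largest sum of fibroblast markers, and without that library DESeq2 called Wnt10a. Wnt2, a β-catenin ligand, had 24, 61 and 42 reads in KO, against 3, 52 and 37 reads in WT. Its lowest library, WT replicate 1, was also lowest in fibroblast markers, and the part of these cells in the levels was not tested. In bulk RNA, fewer cells of a type and less RNA per cell cannot be told apart. Wnt2b had 26, 42 and 27 reads in KO and 6, 21 and 7 reads in WT, with a log2 fold change of 1.00 ± 0.55 (SE) and an edgeR adjusted p of 0.355. The exons of Wnt7b and Wnt11 overlap genes on the opposite strand by 38 and 364 bases in GENCODE M21. Strand marking is not part of the described protocol, so their reads are uncertain to that extent.

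**Figure D3:**
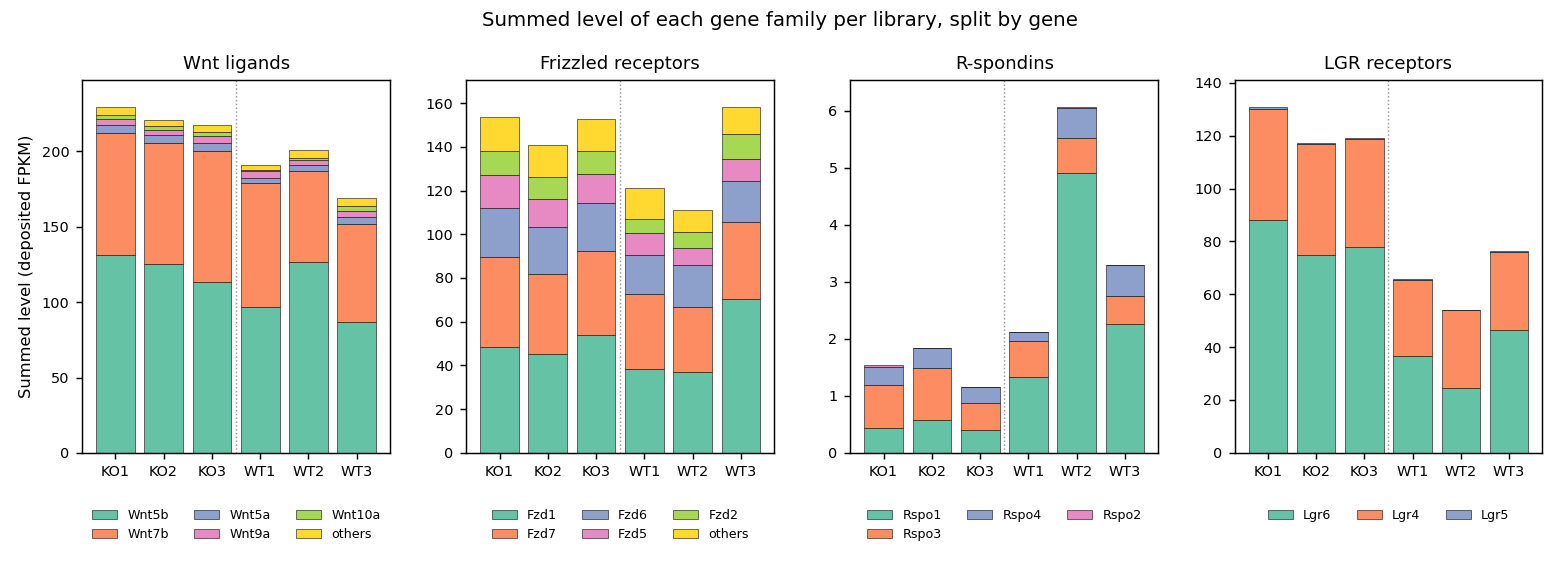
Summed deposited FPKM of Wnt ligands, Frizzled receptors, R-spondins and LGR receptors in each library, split by gene, KO bars left of WT bars, all axes starting at 0. Wnt5b and Wnt7b fill most of each ligand bar in both genotypes, Rspo1 fills 31.3% of the R-spondin bars in KO and 70.8% in WT on average, and the LGR bars of KO exceed all those of WT.

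Both LRP co-receptors, which Wnt proteins bind beside a Frizzled to start β-catenin signalling, rose in DESeq2. Lrp6 (chromosome 6, 134446476 to 134566965, minus strand) had 292, 272 and 265 CPM in KO, against 148, 139.8 and 188 CPM in WT. Each KO library was above each WT library, and WT replicate 3 was the WT library nearest to KO. The difference on the log2 scale was 0.80 ± 0.14 (SE), with an adjusted p of 0.0833 in edgeR and 4.34e-05 in DESeq2. It was 0.51 ± 0.11 with the length trend removed, and 0.49 ± 0.11 when annotated transcript length was used in place of the deposited length. Lrp6 was called by DESeq2 in all 7 alternatives, which were the length correction and each library left out.

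Lrp5 (chromosome 19, 3584828 to 3686564, minus strand) had 368, 309 and 324 CPM in KO, against 188, 198 and 253 CPM in WT. Again no KO library overlapped with WT. Lrp5's log2 fold change was 0.65 ± 0.15 (SE), with an adjusted p of 0.104 in edgeR and 0.00338 in DESeq2. With the deposited length trend removed it was 0.37 ± 0.14, and with annotated transcript length in its place 0.57 ± 0.13, so the size of the shift depends on the length used. The DESeq2 call was lost with the deposited length trend removed, without KO replicate 1 (adjusted p = 0.106) and without KO replicate 3 (adjusted p = 0.0603). Per length, both genes together had 72.9, 64.2 and 63.7 FPKM in KO, against 36.5, 38.5 and 47.4 FPKM in WT. The ratio of Lrp6 to Lrp5 within a library, which library scaling cannot move, averaged −0.34 ± 0.08 in KO and −0.50 ± 0.08 in WT on the log2 scale (SD, n = 3 each). The 3 KO values were above the 3 WT values, the closest pair being −0.412 in KO replicate 1 and −0.414 in WT replicate 1. A two-sided exact permutation test gave p = 0.1, the smallest possible, and 0.1 after adjustment over the 3 ratios tested. The difference between the genotypes, 0.15, was 0.14 with the length trend removed by deposited length, and turned to −0.08 with annotated transcript length, so its direction depends on the length used.

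Frizzled receptors, the seven-pass proteins that bind Wnt, were led by Fzd1, Fzd7 and Fzd6 in both genotypes. Fzd1 averaged 49.1 ± 4.27 FPKM in KO and 48.6 ± 19.0 FPKM in WT, Fzd7 averaged 38.8 ± 2.43 FPKM in KO and 33.1 ± 2.89 FPKM in WT, and Fzd6 averaged 21.9 ± 0.27 FPKM in KO and 18.5 ± 0.79 FPKM in WT (SD, n = 3 each). Fzd1 ran from 36.9 FPKM in WT replicate 2 to 70.5 FPKM in WT replicate 3, where fibroblast markers were also highest, and the part of these cells was not tested. The summed Frizzled level overlapped between the groups, at 153, 141 and 153 FPKM in KO and 121, 111 and 158 FPKM in WT.

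Fzd3 and Fzd5 were the Frizzled genes that rose in DESeq2. Fzd3, known for planar polarity and axon guidance, lies on chromosome 14 (65201026 to 65262463, minus strand) and had 11.9, 11.8 and 10.2 CPM in KO, against 4.67, 6.22 and 6.71 CPM in WT. The groups were well apart. Fzd3's log2 fold change was 0.95 ± 0.20 (SE), with an adjusted p of 0.0936 in edgeR and 0.00121 in DESeq2. It was 0.91 ± 0.19 with the deposited length trend removed and 0.56 when annotated transcript length was used in place of the deposited length. The DESeq2 adjusted p was 0.0608 without KO replicate 1 and 0.0532 without KO replicate 2. The log2 ratio of Fzd3 to Fzd6 averaged −3.02 ± 0.14 in KO and −3.73 ± 0.23 in WT (SD, n = 3 each), without overlap, and the exact permutation test gave p = 0.1 before and after adjustment. The difference of 0.71 was 0.41 with the trend on annotated transcript length removed.

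Fzd5, a Frizzled that binds Wnt5a among other ligands, had 106, 87.3 and 92.4 CPM in KO, against 73.1, 52.5 and 71.5 CPM in WT. Its log2 fold change was 0.54 ± 0.15 (SE), with an adjusted p of 0.144 in edgeR and 0.0420 in DESeq2, and 0.34 ± 0.12 after the length correction. Leaving out any one KO library lowered DESeq2's calls over all genes from 1046 to between 283 and 360, and the Fzd5 call was lost each time. Its DESeq2 adjusted p was then 0.137 to 0.336, at log2 fold changes of 0.46 to 0.61. Its exons overlap an opposite-strand gene, Gm38058, by 1233 bases, so its reads are uncertain. Fzd6 had 90.2, 87.7 and 90.9 CPM in KO, against 72.8, 75.4 and 78.0 CPM in WT, a small difference without overlap. Its log2 fold change was 0.25 ± 0.09 (SE), with adjusted p-values of 0.194 in edgeR and 0.0939 in DESeq2. Fzd7 also had every KO library above every WT library, at a log2 fold change of 0.23 ± 0.12 and an edgeR adjusted p of 0.331. Fzd2, Fzd4, Fzd8 and Fzd9 overlapped between the groups, with log2 fold changes from −0.04 to 0.34, and Fzd2 was called by DESeq2 without WT replicate 3.

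Of the receptors outside the Frizzled and LRP families, Ror1 rose in DESeq2. Ror1, a Wnt5a receptor with a tyrosine kinase-like domain, lies on chromosome 4 (100095791 to 100444765, plus strand). It had 66.7, 67.9 and 66.3 CPM in KO, against 48.5, 43.9 and 53.0 CPM in WT. As a log2 fold change this was 0.47 ± 0.10 (SE), with an adjusted p of 0.1 in edgeR and 0.00691 in DESeq2, and 0.32 ± 0.09 after the length correction. Without KO replicate 1, 2 or 3 the DESeq2 adjusted p was 0.112, 0.112 or 0.130. Ryk, the most abundant of the 3 per length, had 37.8, 35.4 and 37.5 FPKM in KO, against 32.9, 31.1 and 32.5 FPKM in WT. No Ryk value overlapped, and its log2 fold change was 0.20 ± 0.10 (SE) with an edgeR adjusted p of 0.296. Ror2 ranged from 3.23 to 4.24 FPKM in KO and from 1.97 to 5.25 FPKM in WT, again with its highest value in WT replicate 3.

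**Figure D4:**
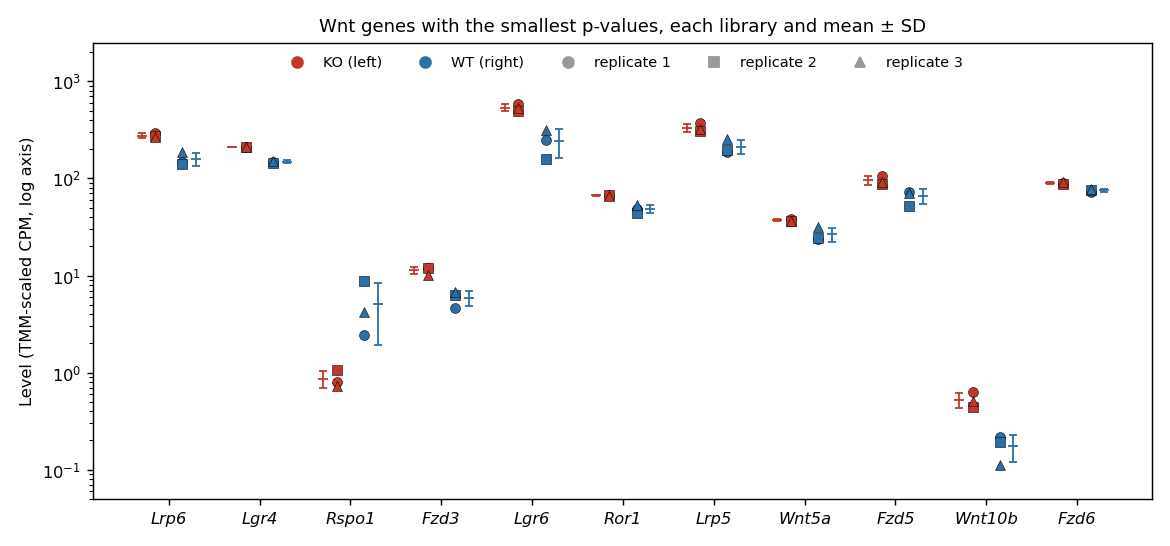
TMM-scaled CPM (log axis) of the 11 genes with an unadjusted edgeR p under 0.05, ordered by p, in each library, with mean ± SD beside the points, KO left and WT right. In all 11 the groups do not overlap. They were picked by p in these same libraries, so this is no separate result. Over all genes tested, 14.2% had every KO library above every WT library and 14.6% had every one below. Rspo1 alone is lower in KO, and Wnt10b passed the filter only through KO.

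The R-spondin arm held changes in opposite directions. Rspo1, the R-spondin gene best known in the mammary epithelium, fell in DESeq2. It lies on chromosome 4 (124986430 to 125009099, plus strand) and had 23, 31 and 20 reads in KO, against 57, 180 and 76 reads in WT. Scaled to CPM these were 0.800, 1.05 and 0.735 in KO, against 2.46, 8.68 and 4.25 in WT, so even the lowest WT library was above the highest KO library. On the log2 scale KO over WT was −2.56 ± 0.50 (SE; 95% interval −3.73 to −1.39). Adjusted p-values were 0.0867 by edgeR and 0.000115 by DESeq2. It was −2.34 ± 0.44 with the length trend removed. Rspo1 was called by DESeq2 in all 7 alternatives, and in edgeR its log2 fold change was −1.94 without WT replicate 2, the WT library in which it was highest.

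Myeloid markers moved with Rspo1 across the WT libraries. WT replicate 2 was highest in Rspo1 and in the myeloid sum, with 1277 CPM of the lysozyme gene Lyz2 against 78.0 to 339 CPM in the other WT libraries and 101 to 172 CPM in KO. In WT replicate 1 Rspo1 was 2.46 CPM, with a myeloid sum of 471 CPM and a fibroblast sum of 3319 CPM. The part of these cells in the Rspo1 level was not tested.

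No fall was called for the other R-spondins. Rspo3, which also binds LGR receptors, had 51, 63 and 32 reads in KO and 36, 29 and 21 in WT, with a log2 fold change of 0.30 ± 0.34 (SE) and an edgeR adjusted p of 0.654. Its exons overlap the opposite-strand gene Gm48159 by 404 bases. Rspo4 had 22, 25 and 18 reads in KO and 8, 25 and 24 in WT, with an edgeR adjusted p of 0.760. Rspo2 had 4 reads in KO and 1 in WT in all. Rspo1 made up 31.3% ± 2.71 of the summed R-spondin FPKM in KO and 70.8% ± 9.31 in WT (SD, n = 3 each). The sum itself was 1.54, 1.84 and 1.16 FPKM in KO, against 2.11, 6.06 and 3.298 FPKM in WT, low beside the LGR receptors in both.

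Of the 3 LGR receptors, to which R-spondins bind, Lgr6 and Lgr4 rose in DESeq2. Lgr6 (chromosome 1, 134983301 to 135105276, minus strand), a marker of progenitor cells in skin and mammary gland, had 585, 497 and 527 CPM in KO, against 247, 159 and 317 CPM in WT. The highest WT library remained far below the lowest KO library. The rise on the log2 scale was 1.15 ± 0.24 (SE), with an adjusted p of 0.0936 in edgeR and 0.000317 in DESeq2, and 0.98 ± 0.19 after the length correction. Per length Lgr6 averaged 80.2 ± 6.90 FPKM in KO and 35.9 ± 10.9 FPKM in WT (SD, n = 3 each), which placed it above every Frizzled and LRP gene in KO, while in WT Fzd1 averaged more.

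Lgr4 (chromosome 2, 109917647 to 110014257, plus strand), the broadly expressed member of the family, varied little within either group. It had 211 CPM in each of the 3 KO libraries, against 149, 143 and 153 CPM in WT. The rise on the log2 scale was 0.51 ± 0.09 (SE), with an adjusted p of 0.0833 in edgeR and 7.49e-06 in DESeq2, and 0.41 ± 0.09 after the length correction. Both Lgr4 and Lgr6 were called by DESeq2 in all 7 alternatives. Lgr5, a stem cell marker in several epithelia, was rare, with 97, 65 and 32 reads in KO, against 14, 27 and 26 reads in WT. Its log2 fold change was 1.02 ± 0.50 (SE), with adjusted p-values of 0.308 in edgeR and 0.281 in DESeq2. In CPM its groups overlapped, because KO replicate 3 had 1.18 and WT replicates 2 and 3 had 1.30 and 1.45.

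Within a library Lgr4 was lower relative to Lgr6 in KO. The log2 ratio of Lgr4 to Lgr6 averaged −0.94 ± 0.12 in KO and −0.25 ± 0.46 in WT (SD, n = 3 each), and the 3 KO values were below the 3 WT values. The exact permutation test gave p = 0.1 before and after adjustment. Summed LGR levels were 131, 117 and 119 FPKM in KO, against 65.7, 54.2 and 76.2 FPKM in WT. Lgr6 made up 65.5% ± 1.77 of that sum in KO and 54.0% ± 7.83 in WT.

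Of the maturation genes, Wls was among the most abundant genes of the whole set and was nearly level. It had 78.5, 80.7 and 79.2 FPKM in KO, against 86.2, 73.2 and 74.5 FPKM in WT, with a 95% interval of the log2 fold change from −0.24 to 0.29. Porcn ranged from 6.49 to 9.83 FPKM in KO and from 3.87 to 16.0 FPKM in WT. Its interval, from −1.32 to 0.89, was wide.

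**Figure D5:**
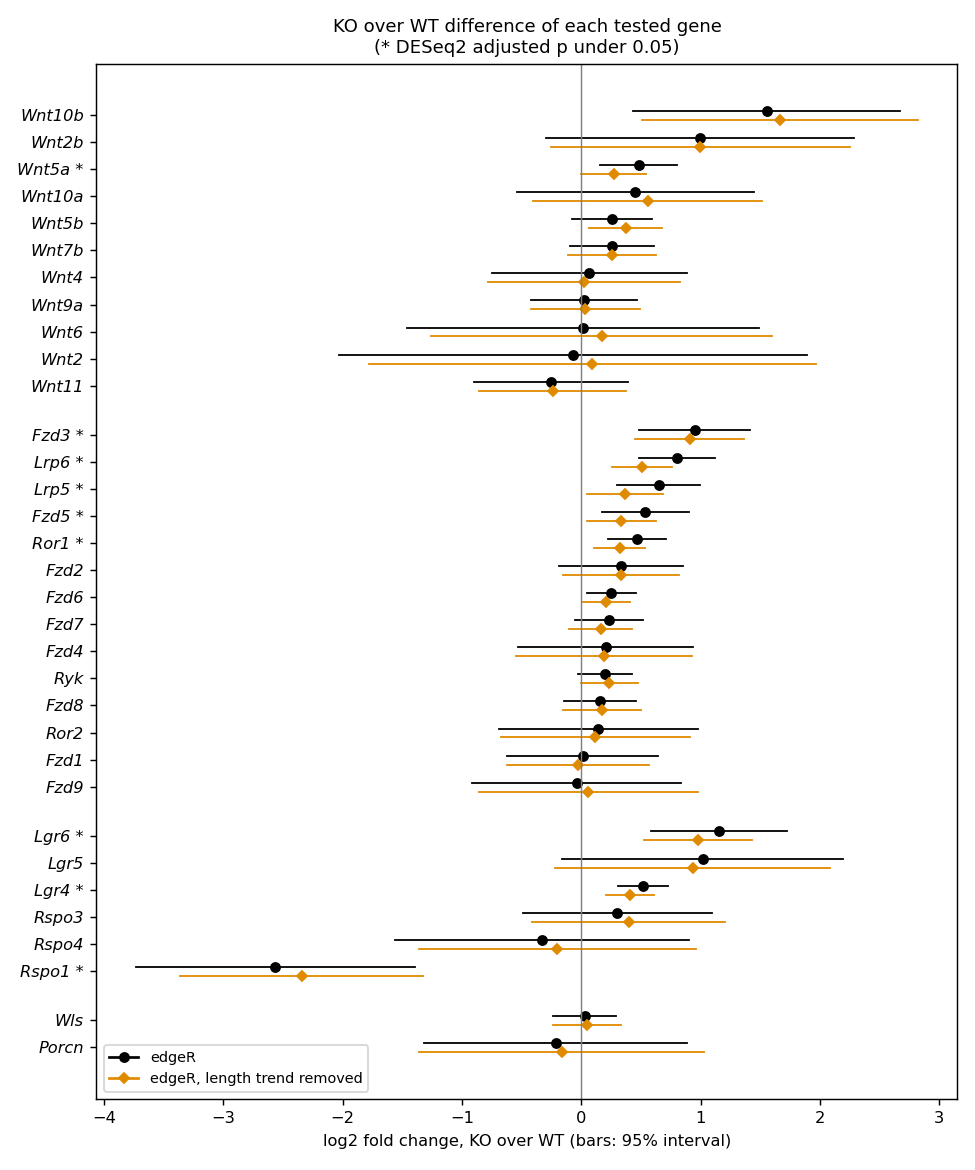
log2 fold change (KO over WT) with 95% intervals for each tested gene by family, from edgeR without correction (black circles) and with the length trend removed (orange diamonds), an asterisk marking genes called by DESeq2 without correction. The correction moves Lrp5, Lrp6 and Wnt5a toward 0 and changes the sign of Wnt2, Fzd1 and Fzd9, all close to 0. Of the genes with an asterisk, all but Wnt5a keep an interval clear of 0 after the correction.

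Other genes of the Wnt pathway were counted in 6 lists, in which edgeR called 0 genes after adjustment. Over all genes DESeq2 called 4.13% higher in KO, and edgeR took 8.93% as higher at an unadjusted p under 0.05. Among the 6 tested secreted antagonists, DESeq2 called 3, all higher in KO. Sfrp1, which sequesters Wnt proteins, had 64.0, 48.7 and 45.7 CPM in KO, against 20.2, 17.5 and 22.8 CPM in WT, a log2 fold change of 1.39 ± 0.17 (SE) with an adjusted p of 0.0755 in edgeR and 3.69e-09 in DESeq2. Dkk2, an LRP antagonist, had 1.15, 1.12 and 0.845 CPM in KO, against 0.173, 0.386 and 0.0559 CPM in WT, with a DESeq2 adjusted p of 0.0336. WT replicates 1 and 3 were below the filter's cutoff of 0.391 CPM, so Dkk2 passed the filter through KO, the group in which it was higher. The third was Sfrp2. Among the 11 planar polarity genes DESeq2 called 3, all higher in KO. These were the atypical cadherin genes Celsr2 and Celsr1, at log2 fold changes of 0.78 ± 0.15 and 1.21 ± 0.28, and Daam1, an effector of Dishevelled. Among the 12 nuclear effectors it called Bcl9l, a co-activator of β-catenin, at 0.45 ± 0.12. Sfrp2 and Daam1 are named from their values, to complete these counts. The calls and fold changes given for single genes of these lists are without the length correction.

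DESeq2 called 0 of the 12 genes of the destruction complex and Dishevelled, 0 of the 5 tested genes of receptor turnover and 0 of the 8 tested glypicans and surface cofactors, and edgeR took 1 gene of each list at an unadjusted p under 0.05 (Apc, Znrf3 and Gpc3, all higher in KO), a count near the share over all genes. Axin2, a feedback target of β-catenin that is given here after its values were seen, had 15.3, 14.9 and 17.1 CPM in KO, against 7.35, 15.1 and 24.8 CPM in WT. Its groups overlapped, with a log2 fold change of 0.00 ± 0.39 (SE). The median log2 fold change was 1.01 for the tested antagonists (Dkk2 included), 0.28 for planar polarity, 0.35 for receptor turnover, 0.15 for the surface cofactors, 0.12 for the nuclear effectors and 0.10 for the destruction complex, against −0.05 over all genes tested. With the length trend removed these medians were 1.21, 0.14, 0.27, 0.16, 0.05 and −0.02 in the same order of lists, against −0.01 over all genes, so that of the destruction complex changed sign.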

How the data were processed

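Poly(A) RNA was fragmented, reverse transcribed from random hexamers and amplified by PCR, per the labels' protocols, and the submitters' processing notes list CASAVA, STAR and the build mm10. For the counting tool, annotation and versions, none is given in the sources used here. The authors deposited whole-number read counts per gene and library, with FPKM beside them, which equalled the count divided by the deposited length and by the library total (largest relative difference 2.1e-07). The authors' group means of normalized counts (a signal column per group) were not used. The log2 fold change, p-value and adjusted p-value columns are the authors' deposited table, whose tool is not stated.

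In R 4.3.3, edgeR 4.0.16 fitted the counts: default filter (count 10, total 15), TMM scaling, robust quasi-likelihood F test, Benjamini-Hochberg over all genes, threshold 0.05. DESeq2 1.42.0 was run on the same filtered genes. CPM values use TMM-scaled totals. The length trend was a smooth curve of each library's deviation on log10 deposited length (mgcv 1.9.3), removed through offsets. The edgeR fit, with and without the deposited length trend removed, and DESeq2 without that removal were tested on simulated data, and the other alternatives were not. Per-library values are given for members with an unadjusted edgeR p or a DESeq2 adjusted p under 0.05, levels and ranges for the rest, raw counts for untested ones, and at most 2 genes of the smallest p per pathway list. Alternatives were other scalings, filters of none and of 1 CPM in 3 libraries, an adjusted p under 0.10, a replicate block, the length correction, limma-trend 3.58.1 on log2(FPKM + 1) and log2(FPKM + 0.1), which understates changes of low genes, and each library left out. DESeq2 with the length correction or with a library left out, and annotated transcript length (GENCODE M21, 98.98% of identifiers matched), were added after seeing the data. The members, lists and tests were chosen with earlier results of these data known. Standard errors and intervals come from the edgeR fit and include the spread between libraries.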

Additional observations from a re-analysis of the deposited data

How the results depend on the processing

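The 11 genes given per library, Ezh2, the ratios of Lgr4 to Lgr6 and of Fzd3 to Fzd6, and the medians of ligands, receptors and the R-spondin arm kept their direction under every alternative run on them. The Lrp6 to Lrp5 difference turned to −0.085, and the Fzd3 to Fzd6 difference came to 0.41, with the annotated transcript length trend removed. The median of Porcn and Wls, −0.09, ranged from −0.32 to 0.28. edgeR's 0 called genes became 131 without a filter (2 of the Wnt genes, Lrp6 and Rspo1), 374 at an adjusted p under 0.10 (5: Fzd3, Lrp6, Rspo1, Lgr4 and Lgr6) and 2 in limma-trend at either pseudocount (0 of the Wnt genes), against 1046 and 9 in DESeq2. Leaving out one library gave 0 to 216 genes and 0 to 3 Wnt genes: 38 and 1 without WT replicate 1, and 216 and 3 without WT replicate 2. Ezh2 passed in DESeq2 (−1.47), without a filter (−1.46) and without WT replicate 2, with leave-one-out values from −1.63 to −1.33. DESeq2's 1046 genes and 9 Wnt genes became 486 and 5 with the length trend removed, and 283 to 1998 genes and 4 to 11 Wnt genes with one library left out, fewest without KO replicate 1 and most without WT replicate 1 (genes) or WT replicate 3 (Wnt genes). The ligand median of 0.26 was 0.061 with at least 1 CPM in 3 libraries, 0.051 in limma-trend on log2(FPKM + 1) and 0.37 with a replicate block and the length trend removed. Both filters leave 9 ligands, without Wnt2b and Wnt10b, and limma-trend on log2(FPKM + 0.1) with the same 9 gave 0.27. The receptor median of 0.24 ranged from 0.19 to 0.47 with one library left out, highest without WT replicate 3. The cause of these shifts was not tested beyond what each setting does. A replicate block gave 0 called genes and 10 Wnt genes at an unadjusted p under 0.05, 9 with the length trend also removed, against 11 without the block. Samples of the same number did not pair (correlations of −0.07, 0.25 and 0.08). 6 genes had too few reads to test, and with 3 libraries per group a gene with few reads, such as Wnt10b or Lgr5, can differ without a call.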
